A study of Drosophila melanogaster with 3 samples.

Results

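Annexins and the ESCRT machinery (endosomal sorting complexes required for transport) are protein families known for closing holes in the plasma membrane, and the transcripts of 10 such genes were followed here in laser-wounded *Drosophila* embryos. The genes were AnxB9, AnxB10, AnxB11, ALiX, TSG101, shrb, Vps4, Vps25, Vps28 and lsn, and they were chosen by name. Their probes are those to which the array's annotation gives the gene's symbol or synonym. Of the 10 genes, 8 had a probe of their own, out of 8262 such genes in the series. Vps4 was represented only by a probe that the annotation gives to 2 genes, and no probe is named for lsn, so these 2 genes were not tested. Syncytial embryos of 0-1 h, a single large cell with many nuclei, carried the actin reporter sGMCA in both conditions. Under halocarbon oil, hand-dechorionated embryos were either wounded with a laser or left intact, and both kinds were frozen 30 min later. Each of 3 two-colour arrays (experiments 3, 4 and 5) compared wounded with unwounded RNA of one experiment. RNA was taken from whole embryos, of which the wounds are only a part, so a local change in transcript level and a weaker change throughout the embryo cannot be told apart.

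Annexins bind acidic phospholipids in the presence of calcium, and in wounded cells of other animals they gather at the membrane edge when calcium flows in. ESCRT proteins act in order. ESCRT-0 collects ubiquitinated cargo on endosomes, ESCRT-I and ESCRT-II deform the membrane, ESCRT-III polymerises into filaments that pinch it off, and the ATPase Vps4 takes the filaments apart. In mammalian cells ESCRT-III is also drawn to plasma membrane wounds, with help from the calcium sensor ALG-2 and the Bro1-domain protein ALIX. Both families act as proteins, and their recruitment to a wound cannot be seen in RNA.

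Values are log2 ratios of wounded over unwounded, so that 0 means no difference and 0.58 means a 1.5-fold higher level in wounded embryos. The sign is the likely one, as the deposited table does not state it. It rests on the raised and lowered genes that the main text of the study lists: 12 raised genes were tested and 12 lay above 0, and 13 lowered genes were tested and 13 lay below 0. Cy3 marked the wounded sample and Cy5 the unwounded one on every array, so a gene-specific dye difference cannot be told apart from an effect of wounding. A gene was called when limma gave an adjusted p under 0.05 and the mean change was at least 1.5-fold. By this rule 237 of 10183 features were called, which is 2.33%, with 0.648% higher and 1.68% lower.

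No annexin or ESCRT gene of the 8 was called, against 2.33% of all features. Their mean ratios ran from -0.18 for AnxB10 to 0.26 for ALiX, with 3 means above 0 and 5 below. The median was -0.01, beside 0.001 for all features. Adjusted p-values (limma, Benjamini-Hochberg over all features) ran from 0.196 for ALiX to 0.972 for Vps28, and ALiX was the 1 gene with an unadjusted p under 0.05, a level that 25.0% of all features passed. The 95% intervals from limma bounded the mean measured ratio, but only with regard to the spread between arrays. A dye difference would be the same on every array and is not covered by them. The interval lay within 1.5-fold in either direction for 8 of 8 genes. This was also so for 84.6% of all features, so it does not set these genes apart. The largest change any of these 8 intervals allowed was 1.43-fold, for ALiX. For TSG101 this holds for the mean of its 2 probes and not for clone RH36765 on its own, whose interval ran from -0.89 to 0.11. Intervals of the 8 genes overlapped in 28 of 28 pairs. The genes share the same arrays, so this overlap is no comparison between genes and does not show that their ratios were equal.

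**Figure D1:**
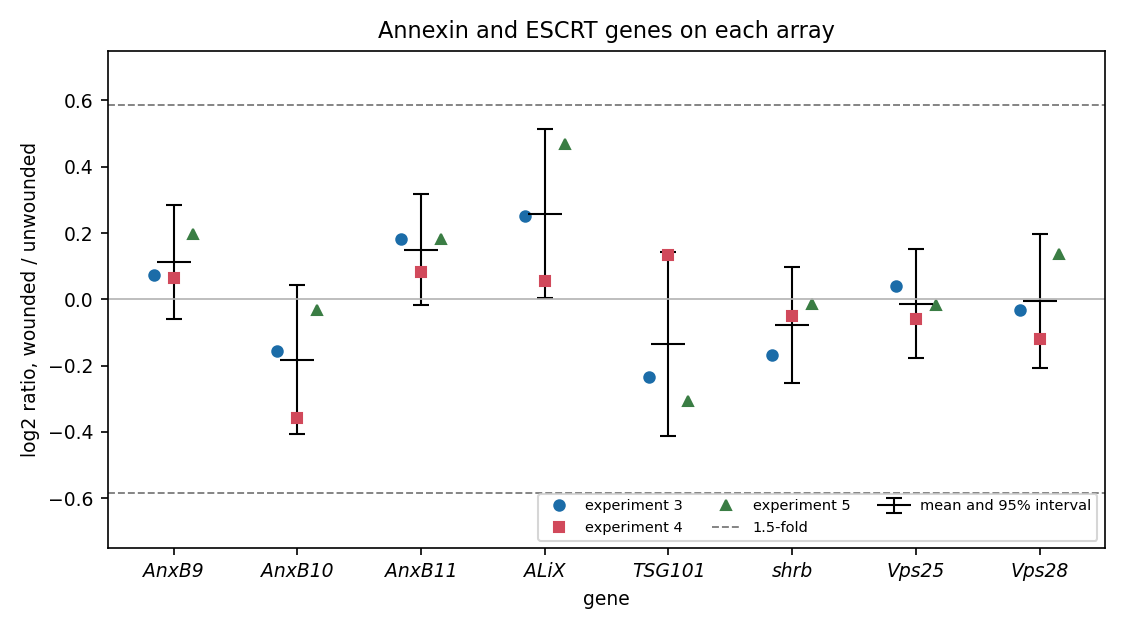
Log2 ratio of wounded over unwounded (vertical axis) for the 8 tested genes (horizontal axis), with 1 point for each of 3 arrays, a bar for the mean and whiskers for the 95% interval from limma. Dashed lines mark 1.5-fold, and the 24 points lie between -0.36 and 0.47, inside them.

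The 3 annexins did not lie on the same side of 0. AnxB9 had ratios of 0.07, 0.07 and 0.20 in experiments 3, 4 and 5, with a mean of 0.11 ± 0.07 (SD, n = 3). AnxB11, which was measured by 2 probes, had 0.18, 0.08 and 0.18, with a mean of 0.15 ± 0.06. Both genes were above 0 on every array. AnxB10, in contrast, had -0.16, -0.36 and -0.03, with a mean of -0.18 ± 0.17. It was below 0 on every array and was lowest in experiment 4. Adjusted p-values were 0.346 for AnxB9, 0.267 for AnxB10 and 0.234 for AnxB11, and the intervals allowed at most a 1.22-fold, 1.33-fold and 1.25-fold change, respectively.

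Within each array AnxB10 had the lowest ratio of the annexins. The ratio of AnxB11 exceeded that of AnxB10 by 0.34, 0.44 and 0.22 in experiments 3, 4 and 5, and that of AnxB9 exceeded it by 0.23, 0.43 and 0.23. AnxB9 and AnxB11 were closer, with a mean difference of 0.04 ± 0.06. These differences were picked out after the values were seen and are given with no test. Annexins are related in sequence, and a cDNA clone of one can bind some transcript of another.

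In RefSeq's gene table each of the annexin genes overlaps a neighbour, and which part of a gene each spotted clone holds is not given in the sources used here. AnxB10 overlaps CG9578, whose ratios were -0.36, -0.37 and -0.22 (mean -0.32 ± 0.08, limma adjusted p = 0.0802). Like AnxB10, CG9578 was below 0 on all 3 arrays, and the part of this overlap in the AnxB10 ratio was not tested. AnxB9 overlaps r-l, with a mean of 0.12 ± 0.08, and AnxB11 overlaps Traf-like, with a mean of 0.09 ± 0.13. Neither passed the test (adjusted p = 0.328 and 0.519).

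ALiX, the fly gene of the Bro1-domain protein that links ESCRT-I to ESCRT-III, had the highest mean of the group. Its ratios were 0.25, 0.06 and 0.47 in experiments 3, 4 and 5, with a mean of 0.26 ± 0.21, or 1.20-fold. All 3 arrays were above 0, but experiment 5 was far above experiment 4. The 95% interval, from 0.004 to 0.51, only just left out 0, and the adjusted p was 0.196. Of all features, 92.9% had a lower or equal mean, and 79.5% had a mean of smaller or equal size in either direction. The named genes closest to ALiX over the 3 ratios, by Euclidean distance among 8176 genes, were Alg2, CG2310 and MrgBP, at 0.03, 0.04 and 0.04. Alg2 is a glycosylation enzyme and is not Alg-2, the calcium sensor gene described later, and 3 values are too few for such closeness to describe a shared pattern.

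TSG101 and Vps28 encode subunits of ESCRT-I. Vps28 had -0.03, -0.12 and 0.14, with a mean of -0.01 ± 0.13 (adjusted p = 0.972), so that its arrays lay on both sides of 0 and its interval allowed at most 1.15-fold. TSG101, whose ratio is the mean of 2 probes, had -0.24, 0.13 and -0.31, with a mean of -0.14 ± 0.24 (adjusted p = 0.460). It had the largest SD of the 8 genes.

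That spread came from 1 of the TSG101 probes. Clone RE26756 had 0.16, 0.11 and 0.09 in experiments 3, 4 and 5 (mean 0.12 ± 0.04), above 0 on every array. Clone RH36765 had -0.63, 0.16 and -0.70 (mean -0.39 ± 0.48). The clones differed by only 0.05 in experiment 4 and by 0.79 in each of experiments 3 and 5, where RH36765 was more than 1.5-fold below 0. Neither clone passed the test when every probe was fitted on its own (limma adjusted p = 0.306 and 0.279). A disagreement of this size was uncommon on these arrays. Over the 1087 genes with 2 probes, the means of the probes differed by a median of 0.09, and 53 genes had a larger difference than the 0.51 of TSG101. Probe means of opposite sign were found for 25.8% of these genes. TSG101 overlaps the gene kud in RefSeq's table, for which no value was tested here. The direction of TSG101 therefore depends on the clone. The clones of AnxB11 stood close together, with means of 0.16 ± 0.10 for GH16395 and 0.14 ± 0.06 for GM13766.

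**Figure D2:**
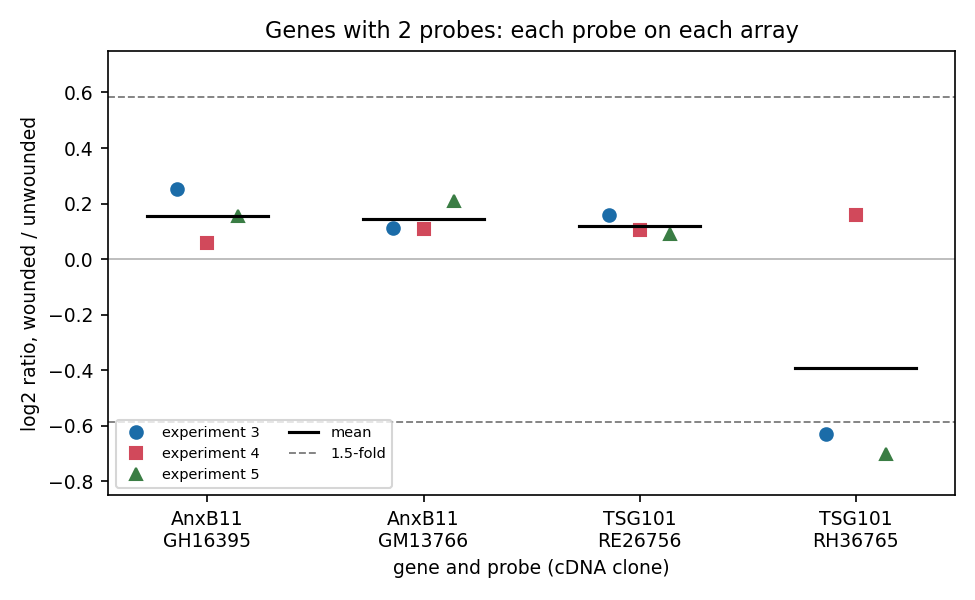
Log2 ratio of wounded over unwounded (vertical axis) for each probe of the 2 genes with 2 probes (horizontal axis), with 1 point for each of 3 arrays and a line for the mean; dashed lines mark 1.5-fold. The AnxB11 clones have means of 0.16 and 0.14, while TSG101 clone RH36765 lies at -0.63 and -0.70 in experiments 3 and 5, apart from RE26756.

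The other tested members also had small ratios. Vps25, a subunit of ESCRT-II, had 0.04, -0.06 and -0.02, with a mean of -0.01 ± 0.05 (adjusted p = 0.916), and had the narrowest interval of the 8 genes, which allowed at most 1.13-fold. The gene shrb (shrub) encodes the main filament subunit of ESCRT-III. It had -0.17, -0.05 and -0.01, with a mean of -0.08 ± 0.08 (adjusted p = 0.504), below 0 on every array. In all, 5 of the 8 genes had the same sign on all 3 arrays, beside 50.3% of all features. The probe given to both Vps4 and Yp1, clone GH02678, had 0.27, 0.04 and 0.13 (mean 0.15 ± 0.12, adjusted p = 0.295 with each probe fitted on its own). RefSeq lists this clone among the synonyms of Vps4. Yp1, a yolk protein gene, had a mean of -0.35 ± 0.33 on probes of its own, and the value of GH02678 is not assigned to either gene.

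The other subunits and partners of the ESCRT complexes were described from a list of 25 genes, which includes the 7 ESCRT genes above. Of these 25, 20 were tested and 0 were called in limma, while 6 had an unadjusted p under 0.05 (25.0% of all features did). The median over the 20 genes was -0.05. Hrs and Stam, which form ESCRT-0, had means of 0.25 ± 0.11 and 0.20 ± 0.08 and were above 0 on every array (adjusted p = 0.131 and 0.164). Of the 7 ESCRT-III genes, 6 had a mean below 0, from -0.16 for Chmp1 to -0.08 for shrb, and CHMP2B had 0.10 ± 0.09. Among all features, 50.25% of means lay above 0. In limma 0 of the 7 genes had an unadjusted p under 0.05, and their smallest adjusted p was 0.227. The sign was the same on all 3 arrays for 4 of them, beside 50.3% of all features.

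ESCRT-II held the lowest value of the list. Vps36, whose protein binds ubiquitin and forms the complex with Vps25 and lsn, had -0.41, -0.72 and -0.42, with a mean of -0.52 ± 0.18, or 1.43-fold lower. It was well below 0 on every array, and its adjusted p of 0.0532 and its size were both just short of the thresholds. Its partner Vps25 was at -0.01 ± 0.05. The intervals of these 2 subunits did not overlap (-0.75 to -0.29 for Vps36 and -0.18 to 0.15 for Vps25). Vps36 was the lowest gene of the list and the genes share the same arrays, so this is no comparison between the subunits. How often the intervals of other gene pairs fail to overlap was not counted. The difference was noticed in the data and has no test. Of the genes listed beside Vps4, Vta1 had 0.17 ± 0.09 and Ist1 0.09 ± 0.04. The same part of the list held spas, which encodes a separate ATPase, the microtubule-severing spastin, and had -0.21 ± 0.09. Usp8, a deubiquitinase of endosomal cargo, had -0.18 ± 0.07, and mop, another Bro1-domain gene, had 0.08 ± 0.17.

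**Figure D3:**
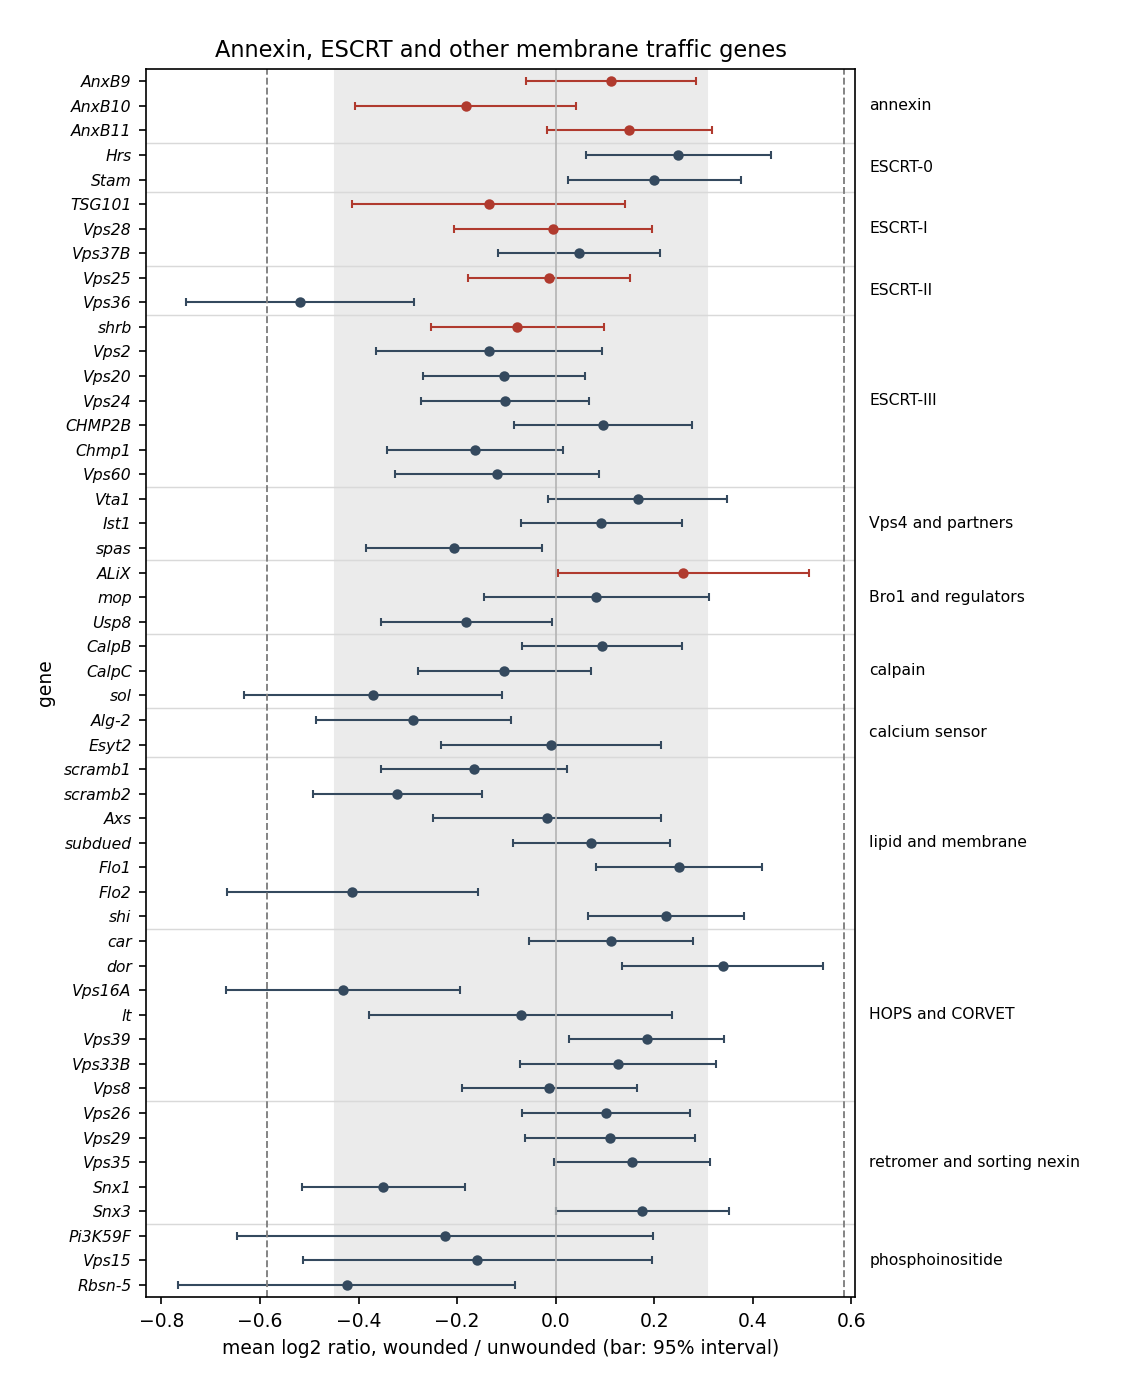
Mean log2 ratio of wounded over unwounded (horizontal axis) with its 95% interval from limma for annexin, ESCRT and other membrane traffic genes (vertical axis), grouped by role; red marks the 8 tested members. The grey band holds the middle of all features, from the 5th to the 95th percentile (-0.45 to 0.31), and dashed lines mark 1.5-fold; Vps36, at -0.52, is the 1 ESCRT gene outside the band.

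Other genes of membrane resealing and endosomal traffic gave no calls either. Of 20 listed resealing genes 12 were tested and 0 called, with 6 at an unadjusted p under 0.05 and a median of -0.06, beside 2.33% called and 25.0% at that level among all features. The lowest p-values were those of scramb2, a phospholipid scramblase gene (-0.32 ± 0.07, adjusted p = 0.0744), and Flo2 (-0.41 ± 0.21, adjusted p = 0.0948). Flo1, whose protein assembles with that of Flo2 into membrane microdomains, had 0.25 ± 0.06. The ratio of Flo1 exceeded that of Flo2 by 0.94, 0.61 and 0.44 on the 3 arrays, as seen after the fact and not tested. Flo2 is the mean of 2 clones, LP11503 at -0.20 and RE74011 at -0.63. Both were below 0, but the size of the Flo2 mean and of its difference from Flo1 depends on the clone. Alg-2, the fly gene of the calcium sensor that recruits ALIX in mammals, had -0.18, -0.26 and -0.43, with a mean of -0.29 ± 0.12 (adjusted p = 0.113). Alg-2 was below 0 on all 3 arrays and ALiX above 0, but 50.3% of all features had the same sign on all 3. The gene was named after its values were seen, and a relation between the 2 genes was not tested. The dynamin gene shi had 0.22 ± 0.02.

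Of 20 genes of endosome and lysosome traffic, 15 were tested and 0 called, with 6 at an unadjusted p under 0.05 and a median of 0.10, against the same shares of all features (2.33% and 25.0%). Snx1, a sorting nexin, had -0.35 ± 0.05 (adjusted p = 0.0603) and Vps16A, a subunit of the tethering complex HOPS, had -0.43 ± 0.18 (adjusted p = 0.0791). Vps16A did not stand for its group. Of 7 tested genes listed with the tethering complexes HOPS and CORVET, 4 had a mean above 0 and 3 below, with a median of 0.11. Those above 0 include Vps33B (0.13 ± 0.13), a relative of the subunit gene car whose place in these complexes is not established here. The highest of them, dor, had 0.34 ± 0.13 (limma adjusted p = 0.0905). The other retromer and sorting nexin genes, Vps26, Vps29, Vps35 and Snx3, had means from 0.10 to 0.18, on the other side of 0 from Snx1.

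The same arrays did show changes in other groups, taken from lists chosen with earlier results of these data known. The early zygotic list includes nullo and dpn, and the maternal list dhd and exu. The study's main text already lists these genes as changed at 30 min. Calls in these groups are therefore no independent check on the annexin and ESCRT genes. Of 37 listed early zygotic genes, which are transcribed from the embryo's own genome, 22 were tested and 15 were not. Of the 22, 12 were called higher (0.648% of all features were), with a median of 0.71. Of 28 listed maternal and germ plasm genes 24 were tested and 4 called lower (1.68% of all features were), with a median of -0.26. Zygotic RNA replaces maternal RNA as an embryo ages, and the part of developmental age in the ratios of the annexin and ESCRT genes was not tested. Markers of later embryonic tissues and yolk gave 0 calls among 16 tested of 22 listed, with 2 at an unadjusted p under 0.05, beside 2.33% and 25.0% of all features.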

How the data were processed

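The authors hybridised wounded and unwounded RNA together on spotted fly cDNA arrays, removed dim or flagged spots, and deposited log2 ratios that were loess normalized within each array in limma. Loess centres each array and hides any change common to most genes. How bright each spot was is not known from ratios, and precision is limited by having 3 arrays. Array medians lay between -0.013 and 0.009. Of 12144 probes, 160 control spots were left out. Symbols were updated through gene identifiers to RefSeq (Release 6), and 9917 probes had 1 symbol, 625 several and 1442 none. Probes with a value on all 3 arrays were averaged per gene, which gave 10183 features. A two-sided limma test (version 3.58.1, under R 4.3.3) compared each mean log2 ratio with 0, with moderated variances and Benjamini-Hochberg adjustment, and the script was tested on simulated data. Experiments were separate, one array each. The genes, lists and tests were chosen with earlier results of these data known. Named genes were all members and, from the ESCRT, resealing and traffic lists, which gave no calls, the 2 with the smallest p. Further genes, such as Stam, Flo1, Alg-2, shi and dor, were named after their values were seen. Called genes of the early zygotic and maternal lists were counted and mostly not named, and later tissue markers were only counted. Alternatives covered probe averaging, missing values, thresholds, scaling, centring, array weights, a robust prior and leaving out each array.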

Additional observations from a re-analysis of the deposited data

How the results depend on the processing

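None of the 8 annexin and ESCRT genes was called in any of the alternatives run, which also held for the 20 genes of the wider ESCRT list, and the median over the 8 genes moved by less than their spread. Directions stayed the same for AnxB9, AnxB10, AnxB11, ALiX and shrb. TSG101 turned to 0.12 with clone RE26756 on its own. When 1 array was left out, Vps28 ran from -0.076 to 0.052, Vps25 from -0.039 to 0.011, mop from -0.016 to 0.14, and ALiX from 0.15 to 0.36. Among the 8 genes, sizes of uncalled means moved by over 1.5 times for Vps28 and Vps25, as given above, and for 5 others. These were ALiX (0.15 without experiment 5), AnxB9 (0.07 without experiment 5), AnxB10 (-0.094 without experiment 4) and shrb (-0.032 without experiment 3). The last was TSG101 (-0.087, -0.27 and -0.052 without experiments 3, 4 and 5). Vps36 passed an adjusted p under 0.05 with array weights (0.0475) and with a robust prior (0.0478) but stayed under 1.5-fold.

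Counts over all features depended on the settings. No feature was called (0 higher, 0 lower) with arrays scaled to the same spread (2546 at an unadjusted p under 0.05), in the test against a 1.5-fold change (118), or when any 1 array was left out (0 to 0 in each direction, with 1473, 2446 and 1675 without experiments 3, 4 and 5). A count of 0 among the 8 genes in those settings thus says nothing about them. With no minimum fold 410 were called, 322 of them lower, and at an adjusted p under 0.10 there were 115 higher calls. Reading the ratio as unwounded over wounded gives 171 higher and 66 lower and turns every direction. Each ratio compares wounded and unwounded RNA of one experiment on one array, so the test against 0 is already paired and no replicate block could be added.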
